A study of Mus musculus with 10 samples.

Results

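Tight junctions seal the space between neighbouring epithelial cells, and claudins are the membrane proteins that set what may pass through them. Some claudins form channels for small ions and water, whereas others close the space, so the balance between pore-forming and sealing claudins shapes how leaky an epithelium is. In the small intestine, Cldn2 and Cldn15 form cation-selective pores through which sodium returns to the lumen, Cldn2 mainly in crypts and Cldn15 along the crypt and villus. The 9 genes described here were taken by symbol from a list of mouse tight junction genes. They comprised the pore-forming Cldn2 and Cldn15, the sealing claudins Cldn3, Cldn4, Cldn7 and Cldn23, the membrane proteins Ocln and F11r, and the scaffold Tjp1. All 9 were among the 54838 genes listed in the files and among the 14719 genes that passed a filter on low counts.

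RNA was measured by sequencing poly(A) RNA from intestinal crypts of 5 WT and 5 Arid3a cKO mice, with 1 library per mouse. The crypts came from the jejunum. Arid3a cKO mice carried VillinCre-ERT2 +/- and Arid3a fl/fl, and both genotypes had received tamoxifen on 3 days and were killed 1 month after the first injection. Villin drives the Cre in epithelial cells, so any other cell in a preparation keeps the gene. Neither the Cre and floxed alleles of the WT mice nor the age of the animals is given in the sources used here. The identifiers of the WT mice and of the cKO mice come from separate series, so genotype and origin of the animals cannot be told apart.

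Totals ran from 27050455 to 28152743 expected counts in WT and from 28314069 to 31053622 in Arid3a cKO. Arid3a itself fell from 2.42 ± 0.397 normalised counts per 1000000 (CPM, SD, n = 5) to 0.673 ± 0.350 CPM, a log2 fold change of -1.84 (SE 0.316, adjusted p = 0.00204 by edgeR's quasi-likelihood test, Benjamini-Hochberg method), and every cKO library was below every WT library. The count covers the whole gene, including exons outside the deleted part. Markers of absorptive enterocytes were higher in Arid3a cKO for 14 of 14 genes, where the log2 fold changes had a median of 1.68. Their summed level was 2019 to 10008 CPM in WT against 11494 to 21311 CPM in cKO. Of the stem and cycling crypt markers 5 of 8 were lower and 0 of 8 higher (summed level 5870.2 to 8968 CPM in WT, 4577 to 6442 CPM in cKO), as were 6 of 7 Paneth cell markers. By contrast, 3 of 7 enteroendocrine and 3 of 5 tuft cell markers were higher, and 0 of 7 goblet cell markers were called by edgeR (1 higher and 2 lower at an unadjusted p under 0.05, and 1 higher by DESeq2). Endothelial, stromal and leukocyte markers were scarce, with summed levels of 1.08 to 6.07 CPM, 8.83 to 133 CPM and 35.5 to 130.03 CPM over the 10 libraries, and 2 of 2 tested endothelial, 1 of 8 stromal and 1 of 8 leukocyte markers were lower in Arid3a cKO.

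The libraries also differed within each genotype. Summed over 6 genes of the gastric surface epithelium (Gkn1, Gkn2, Tff1, Muc5ac, Anxa10 and Psca, chosen after their values were seen), WT 3, WT 4 and WT 5 held 718, 663 and 279 CPM and cKO 4 held 104 CPM, whereas the other 6 libraries held 0.209 to 2.26 CPM. Each of the 9 genes is therefore given for all 10 libraries and again without these 4, which leaves 2 WT and 4 cKO libraries. In those 6 libraries edgeR called 3 of 14 enterocyte markers higher (11 at an unadjusted p under 0.05, median log2 fold change 0.97) and 1 of 7 Paneth cell markers lower (5 at an unadjusted p under 0.05). It called 0 markers of the other lists there, where at an unadjusted p under 0.05 it had 4 of 8 stem and cycling, 1 of 7 goblet, 2 of 2 endothelial, 5 of 8 stromal and 2 of 8 leukocyte markers lower and 3 of 7 enteroendocrine and 0 of 5 tuft cell markers higher. The heat shock gene Hspa1b stood at 415 CPM in WT 5 and at 4.86 to 50.3 CPM in the other 9 libraries. WT 3, WT 4 and WT 5 also had the lowest summed enterocyte markers in WT (3345, 2019 and 4994 CPM). WT 1 and WT 2 held 6426 and 10008 CPM, and cKO 4 lay within the cKO range at 20356 CPM. Leaving out the stomach-gene libraries therefore also keeps the WT libraries richest in enterocyte markers. In bulk RNA, fewer cells of a type and less RNA per cell cannot be told apart.

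Because the mean levels of the 2 pore-forming claudins lay in opposite directions between genotypes, their promoters are shown for reference. RefSeq promoters on build GRCm38.p6 were found for 8 of the 9 genes (all but Cldn23), and the 250 bases before the transcription start were searched on both strands for 5 short sequences: ATTAAA, known as a binding sequence of Arid3a, GTTAAT for HNF1, TTTATG for CDX factors, AGATAA for GATA factors and the TATA box TATAAA. The Cldn2 promoter lies at chrX:139800558-139800807 on the plus strand and that of Cldn15 at chr5:136967619-136967868 on the plus strand, with matches in capitals.
Cldn2: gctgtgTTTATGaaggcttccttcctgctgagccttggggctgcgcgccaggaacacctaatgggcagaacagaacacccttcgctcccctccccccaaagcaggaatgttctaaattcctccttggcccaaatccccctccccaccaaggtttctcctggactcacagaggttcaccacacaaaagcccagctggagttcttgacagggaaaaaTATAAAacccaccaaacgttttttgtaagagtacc
Cldn15: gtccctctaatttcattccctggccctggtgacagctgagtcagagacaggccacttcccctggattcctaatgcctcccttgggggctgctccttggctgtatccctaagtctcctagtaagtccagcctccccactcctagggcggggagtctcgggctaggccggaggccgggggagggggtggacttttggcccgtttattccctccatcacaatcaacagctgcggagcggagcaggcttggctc

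The Cldn2 window held TATAAA beginning 35 bases before the start and TTTATG beginning 244 bases before it, which do not overlap each other. Of 32851 mouse promoter windows of this length, 12.4% held TATAAA and 10.8% held TTTATG on either strand. The Cldn15 window and those of the other 6 genes held none of the 5 sequences, of which ATTAAA was present in 12.7%, GTTAAT in 6.43% and AGATAA in 9.99% of all windows. The windows of Cldn15 and Tjp1 (chr7:65371245-65371494) lie inside the annotated genes. The bases before the outermost annotated starts of Cldn15 and Tjp1 were therefore not searched.

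The first question was how the pore-forming claudins compared between Arid3a cKO and WT crypts. Cldn2 (ENSMUSG00000047230, chromosome X, 139800828 to 139811386, plus strand) measured 280.2, 283, 337, 409.7 and 486 CPM in WT 1 to WT 5. In cKO 1 to cKO 5 it measured 307, 257, 279, 261 and 259.6 CPM. WT 1 and WT 2 lay within the cKO range and WT 3, WT 4 and WT 5 above it, so the groups overlapped. The mean was 359 ± 88.3 CPM in WT and 273 ± 21.1 CPM in Arid3a cKO, a log2 fold change of -0.40 (SE 0.14, 95% interval -0.71 to -0.09), and it did not pass the threshold of 0.05 (edgeR with Benjamini-Hochberg adjustment, adjusted p = 0.0541). The WT libraries varied far more than the cKO libraries, with a coefficient of variation of 24.6% against 7.74%.

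The 3 WT libraries with the most Cldn2 were the 3 that held stomach genes, and WT 5, the highest, was also the library with high Hspa1b, whereas cKO 4, which held stomach genes as well, had 261 CPM. With those 4 left out, the 2 WT values of 280.2 and 283 CPM lay inside the cKO range of 257 to 307 CPM. The log2 fold change was then -0.039 (SE 0.095, edgeR adjusted p = 0.851), in a fit that lacks the 3 highest WT values. With all 10 libraries kept and a term for stomach genes in the model, it was -0.25 (edgeR adjusted p = 0.243). DESeq2 on all 10 libraries gave -0.39 with an adjusted p of 0.0314, and limma on log2(TPM + 1) gave -0.46 with an adjusted p of 0.0245.

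Cldn15 (ENSMUSG00000001739, chromosome 5, 136966616 to 136975858, plus strand) measured 355, 409, 334, 284 and 387 CPM in WT 1 to WT 5. The 5 cKO libraries, in the same order, held 489.6, 416, 417, 459 and 456 CPM. In CPM all cKO libraries were above all WT libraries, although the highest WT library, WT 2, came close to cKO 2 and cKO 3. Cldn15 rose from 354 ± 48.5 CPM to 447 ± 31.1 CPM, a log2 fold change of 0.34 (SE 0.096, 95% interval 0.13 to 0.55, edgeR with Benjamini-Hochberg adjustment, adjusted p = 0.0203). In TPM the groups overlapped, at 226.6 to 293 in WT and 278 to 344 in cKO, with WT 2 above cKO 2 and cKO 3 (limma on log2(TPM + 1), difference 0.25, adjusted p = 0.0465).

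Without the 4 libraries Cldn15 was 355 and 409 CPM in WT against 416 to 489.6 CPM in cKO, without overlap in CPM. The log2 fold change there was 0.21 (SE 0.11, edgeR adjusted p = 0.279). With only 2 WT libraries groups separate easily, and the share of all genes that did so there was not taken. With all libraries scaled by library size alone, edgeR gave 0.21 with an adjusted p of 0.0736, and the call was also lost without cKO 1 (0.31, adjusted p = 0.0517) and without cKO 5 (0.33, adjusted p = 0.0526). Among the WT libraries the one with the highest summed enterocyte markers, WT 2 at 10008 CPM, had the most Cldn15, and the one with the lowest, WT 4 at 2019 CPM, had the least. Between them the order differed, since WT 5 with 4994 CPM of markers had more Cldn15 than WT 1 with 6426 CPM. In Arid3a cKO the most Cldn15 was in cKO 1, with 16818 CPM of markers, and not in cKO 5, with 21311 CPM. The part of the enterocyte markers in the Cldn15 difference was not tested.

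**Figure D1:**
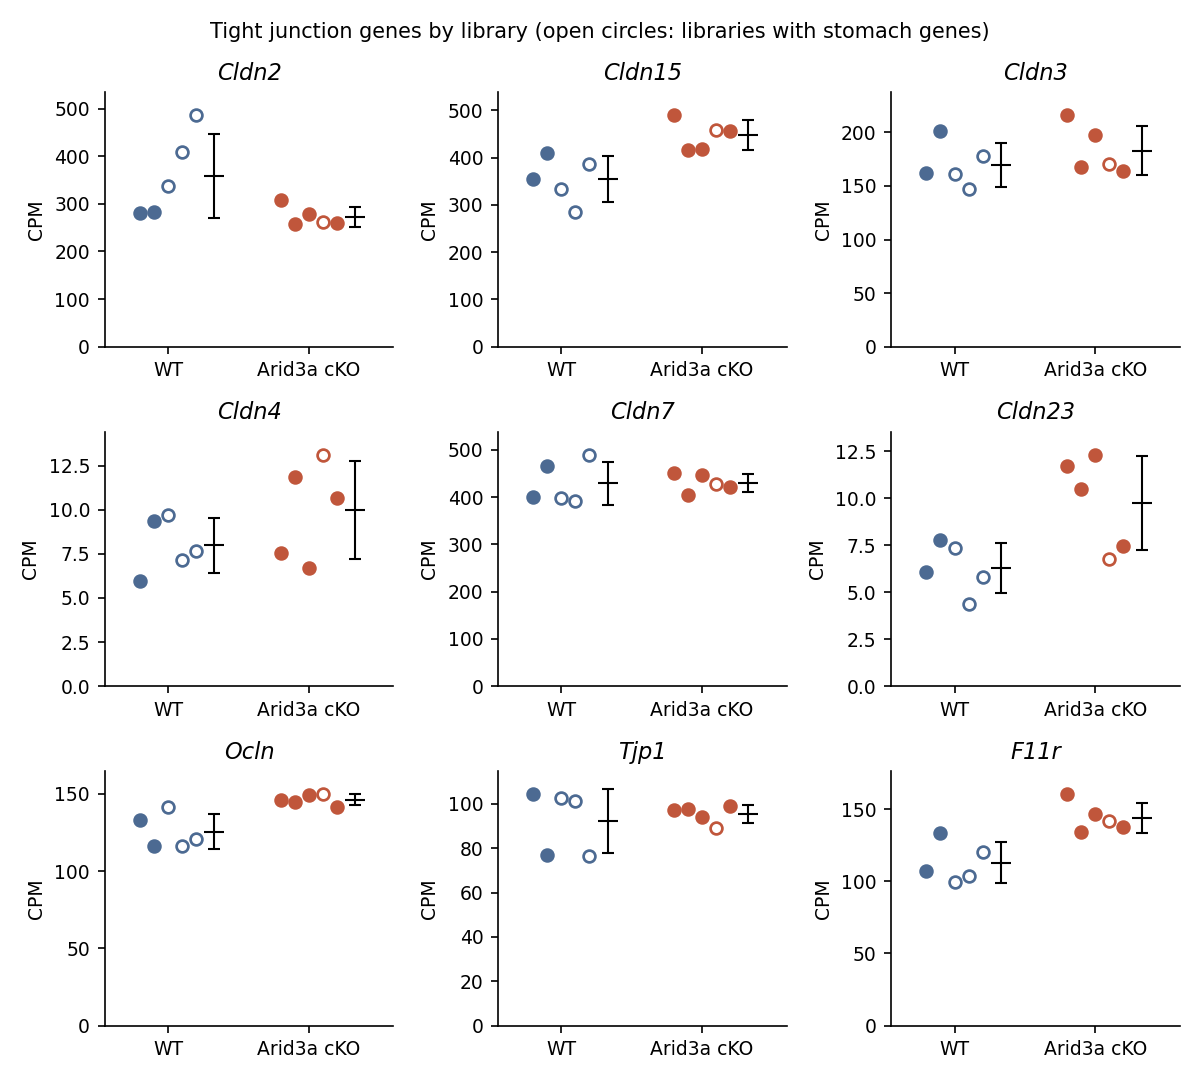
Level of each tight junction gene in CPM (linear axes from 0) in the 5 WT and 5 Arid3a cKO libraries, each point 1 mouse, with the mean ± SD beside each group; open circles mark WT 3, WT 4, WT 5 and cKO 4, which held stomach genes. Cldn15 and F11r show no overlap between genotypes in CPM, while the 3 highest Cldn2 values, 337 to 486 CPM, are all open circles.

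The sealing claudins were compared in the same way. Cldn7 (ENSMUSG00000018569, chromosome 11, 69964779 to 69967885, plus strand) is a claudin that also binds EpCAM. It measured 401, 466, 398, 392 and 490.1 CPM in WT 1 to WT 5. In Arid3a cKO the values were 452, 404, 446, 427 and 422 CPM for cKO 1 to cKO 5. The cKO values all lay inside the WT range, and the means were 429.6 ± 45.3 and 430.4 ± 19.3 CPM (log2 fold change 0.0026, SE 0.078, 95% interval -0.17 to 0.17, edgeR adjusted p = 0.984). The sign of a value this near 0 changed with the scaling, to -0.12 by library size alone.

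On the TPM scale, which divides by transcript length, Cldn7 was 639 ± 36.8 in WT and 564 ± 49.7 in Arid3a cKO (limma on log2(TPM + 1), difference -0.18, adjusted p = 0.0787). RSEM's effective length of Cldn7, an average weighted by the isoforms it assigns, was 812 to 907 bases in WT and 891 to 966 bases in cKO. This length enters the TPM but not the CPM. The CPM in turn use library sizes scaled by TMM factors (1.00 to 1.08 in WT, 0.93 to 0.99 in cKO), which the TPM lack. With effective lengths and TMM edgeR gave -0.089 (adjusted p = 0.453). The annotation lists 5 transcripts of Cldn7.

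Cldn3 (ENSMUSG00000070473, chromosome 5, 134986214 to 134987472, plus strand) is a barrier claudin of intestinal epithelium. It measured 162, 201, 161, 147 and 178 CPM in WT 1 to WT 5. In cKO 1 to cKO 5 it measured 216, 167, 198, 170.1 and 164 CPM. The groups overlapped throughout, at 169.7 ± 20.5 and 183 ± 22.7 CPM (log2 fold change 0.11, SE 0.10, 95% interval -0.11 to 0.33, edgeR adjusted p = 0.437), and by library size alone the value was -0.017. An antisense gene, Wbscr25, overlaps the end of Cldn3, and since the strand setting of the counting is not given in the sources used here, reads of both cannot be told apart there.

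Cldn4 (ENSMUSG00000047501, chromosome 5, 134945119 to 134946934, minus strand) is another barrier claudin. It was scarce, at 5.99, 9.37, 9.71, 7.17 and 7.67 CPM in WT 1 to WT 5. The 5 cKO libraries, in the same order, held 7.55, 11.9, 6.71, 13.1 and 10.7 CPM. The groups overlapped, with 3 cKO libraries above every WT library, and the log2 fold change of 0.32 (SE 0.20, 95% interval -0.10 to 0.75) did not pass the test (edgeR adjusted p = 0.235).

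Cldn23 (ENSMUSG00000055976, chromosome 8, 35824712 to 35826559, minus strand) is a claudin of differentiated epithelial cells. It was equally scarce, at 6.06, 7.75, 7.33, 4.39 and 5.82 CPM in WT 1 to WT 5. In Arid3a cKO the values were 11.7, 10.5, 12.3, 6.77 and 7.46 CPM for cKO 1 to cKO 5. The 3 libraries cKO 1 to cKO 3 lay above all WT libraries, and cKO 4 and cKO 5 lay among them. Cldn23 rose from 6.27 ± 1.33 to 9.75 ± 2.51 CPM, a log2 fold change of 0.64 (SE 0.20, 95% interval 0.21 to 1.06, edgeR with Benjamini-Hochberg adjustment, adjusted p = 0.0290). This rests on 131 to 352 counts per library.

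The call for Cldn23 was lost when any of 6 of the 10 libraries was left out (WT 1, WT 4, WT 5, cKO 1, cKO 2 or cKO 3), with log2 fold changes of 0.53 to 0.75 over all 10 omissions. Without the 4 libraries with stomach genes, Cldn7 stood at -0.015 (edgeR adjusted p = 0.947), Cldn3 at 0.032 (adjusted p = 0.918), Cldn4 at 0.25 (adjusted p = 0.643) and Cldn23 at 0.60 (SE 0.21, adjusted p = 0.146).

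Of the other membrane proteins, occludin, encoded by Ocln (ENSMUSG00000021638, chromosome 13, 100496507 to 100552718, minus strand), measured 133, 116, 141.27, 116 and 120.5 CPM in WT 1 to WT 5. In cKO 1 to cKO 5 it measured 146, 145, 149.2, 149.7 and 141.24 CPM. WT 3 reached the lowest cKO library, cKO 5, and the other 4 WT libraries lay below all cKO libraries. Ocln rose from 126 ± 11.1 to 146 ± 3.45 CPM, a log2 fold change of 0.22 (SE 0.066, 95% interval 0.08 to 0.36, edgeR with Benjamini-Hochberg adjustment, adjusted p = 0.0271). On the TPM scale the groups were 65.2 ± 10.5 and 67.6 ± 4.06, and limma on log2(TPM + 1) gave 0.064 with an adjusted p of 0.668. RSEM's effective length of Ocln ranged from 2321 to 2729 bases in WT and from 2479 to 2765 bases in cKO. TPM also lacks the TMM scaling of the CPM. By library size alone, with no length, edgeR gave 0.091 (adjusted p = 0.336). With effective lengths and TMM it gave 0.15 (adjusted p = 0.203). How much of the TPM value comes from length and how much from scaling was not tested.

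In the 6 libraries without stomach genes Ocln was 116 and 133 CPM in WT against 141.2 to 149.2 CPM in cKO, with a log2 fold change of 0.21 (SE 0.081, edgeR adjusted p = 0.171). The call was lost without WT 4, cKO 1, cKO 2, cKO 3 or cKO 4, with adjusted p up to 0.0663.

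F11r, which encodes the junctional adhesion molecule JAM-A (ENSMUSG00000038235, chromosome 1, 171437535 to 171464603, plus strand), measured 107, 133.7, 99.5, 103 and 121 CPM in WT 1 to WT 5. The 5 cKO libraries, in the same order, held 160.4, 133.9, 146, 142 and 137 CPM. In CPM the groups did not overlap, though WT 2 and cKO 2 were almost level, and the other 4 WT libraries were lower than all cKO libraries. F11r rose from 113 ± 14.1 to 144 ± 10.3 CPM, a log2 fold change of 0.35 (SE 0.087, 95% interval 0.16 to 0.54, edgeR with Benjamini-Hochberg adjustment, adjusted p = 0.0115). It passed the test in each of the 10 fits that left out 1 library. In TPM the groups overlapped, at 63.8 to 79.0 in WT and 70.9 to 88.0 in cKO, and limma on log2(TPM + 1) gave 0.22 with an adjusted p of 0.0542. In the remaining 6 libraries the value was 0.26 (SE 0.11, edgeR adjusted p = 0.223), with 107 and 133.7 CPM in WT against 133.9 to 160.4 CPM in cKO.

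Tjp1 encodes ZO-1, the scaffold that ties claudins and occludin to actin (ENSMUSG00000030516, chromosome 7, 65296165 to 65527781, minus strand). It measured 104, 76.8, 103, 101 and 76.5 CPM in WT 1 to WT 5. In Arid3a cKO the values were 97.3, 97.8, 94.1, 89.2 and 99.2 CPM for cKO 1 to cKO 5. The cKO values lay between a lower pair and an upper trio of WT libraries. The log2 fold change was 0.05 (SE 0.097, 95% interval -0.16 to 0.26, edgeR adjusted p = 0.736), -0.087 by library size alone and 0.094 without the 4 libraries (edgeR adjusted p = 0.672). The 3 annotated loci that overlap Tjp1 are a processed pseudogene and a pair of unverified transcripts.

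Across the 9 genes, 4 rose (Cldn15, Cldn23, Ocln and F11r), 0 fell and 5 did not pass edgeR's test. Over all 14719 tested genes 28.3% were called, 15.6% as higher and 12.7% as lower in Arid3a cKO. At an unadjusted p under 0.05, 1 gene was lower, Cldn2, which DESeq2 also called at its adjusted threshold. In 2 of the 9 genes, Cldn15 and F11r, the CPM of the groups did not overlap and cKO was higher, against 12% of tested genes, while in TPM both genes overlapped. Over all genes 19.6% did not overlap in either direction, 7.63% with cKO lower. The median log2 fold change was 0.22 over the 9 genes, 0.22 over the 4 sealing claudins and -0.03 over the 2 pore-forming claudins, beside -0.03 over all tested genes. The sealing median lay between Cldn3 (0.11) and the scarce Cldn4 (0.32), while Cldn7, the most abundant, stood at 0.0026. The pore-forming median lay between Cldn2 (-0.40) and Cldn15 (0.34), so neither median describes a change shared by its genes. With library size as the only scaling, the median of all genes was -0.16, and edgeR called 0 of the 9 as higher (3 at an unadjusted p under 0.05) and 1 as lower, Cldn2 (-0.52, adjusted p = 0.0118). Without the 4 libraries with stomach genes edgeR called 0 of the 9 in either direction, with 3 higher and 0 lower at an unadjusted p under 0.05, and 2.78% of 15229 genes overall. With a term for stomach genes in place of leaving libraries out, F11r alone passed (0.31, edgeR adjusted p = 0.0397).

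**Figure D2:**
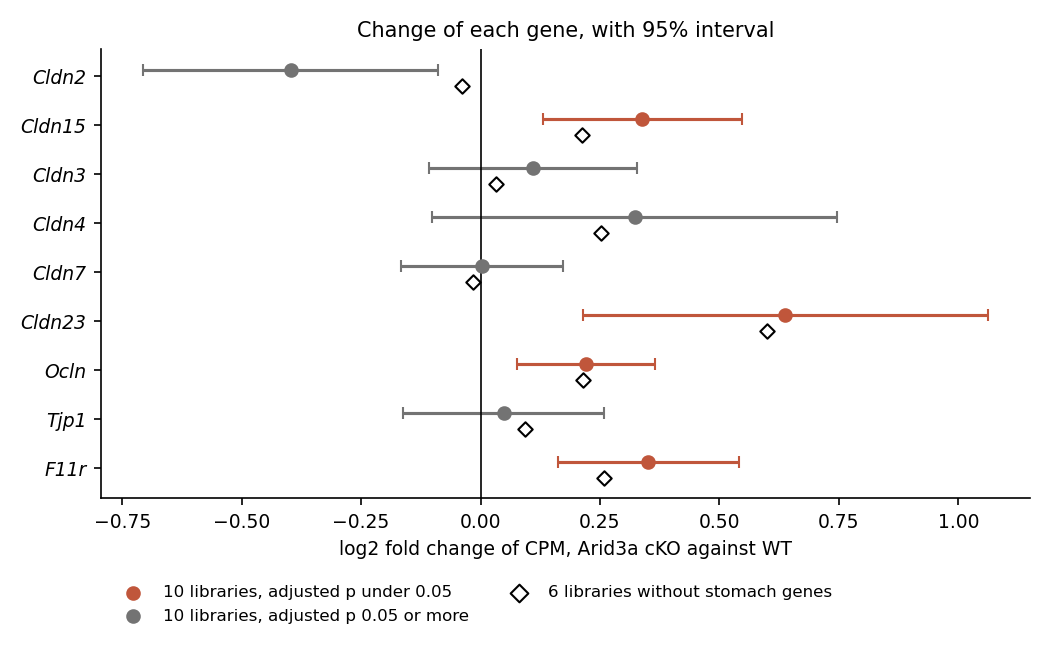
Log2 fold change of CPM, Arid3a cKO against WT, for each of the 9 genes with its 95% interval from 10 libraries (filled circles, orange where the adjusted p is under 0.05) and the value from the 6 libraries without stomach genes (open diamonds, no interval drawn). The diamond of Cldn2 lies at -0.039, to the right of its interval, while those of Cldn15, Cldn23, Ocln and F11r stay above 0.

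How much of each claudin the crypts held was read from TPM, which allows levels of different genes to be compared within a library. In WT, Cldn7 was highest at 639 ± 36.8 TPM, followed by Cldn15 at 261 ± 24.5, Cldn3 at 188 ± 15.9, Cldn2 at 157 ± 35.5, F11r at 69.7 ± 5.65, Ocln at 65.2 ± 10.5, Tjp1 at 18.7 ± 2.93, Cldn4 at 5.98 ± 1.12 and Cldn23 at 4.61 ± 0.916 TPM. The neighbours Cldn3 and Cldn2, F11r and Ocln, and Cldn4 and Cldn23 overlapped in their ranges over the 5 WT libraries, and no other neighbours did. The order by mean was the same in Arid3a cKO, where Cldn3 at 190.4 ± 25.3 TPM and Cldn2 at 112 ± 10.1 TPM no longer overlapped.

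The balance of the 2 pore-forming claudins was then taken within each library. The ratio of Cldn15 to Cldn2 TPM was 2.13, 2.44, 1.68, 1.17 and 1.35 in WT 1 to WT 5 and 2.71, 2.74, 2.52, 2.97 and 2.95 in cKO 1 to cKO 5. Every cKO library had a higher ratio than every WT library, and the cKO libraries lay close together (2.78 ± 0.188) whereas the WT libraries were spread (1.76 ± 0.529). The lowest 3 ratios belonged to WT 3, WT 4 and WT 5, and without the 4 libraries with stomach genes the WT values of 2.13 and 2.44 still lay below the cKO values of 2.52 to 2.95, by a narrow margin.

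**Figure D3:**
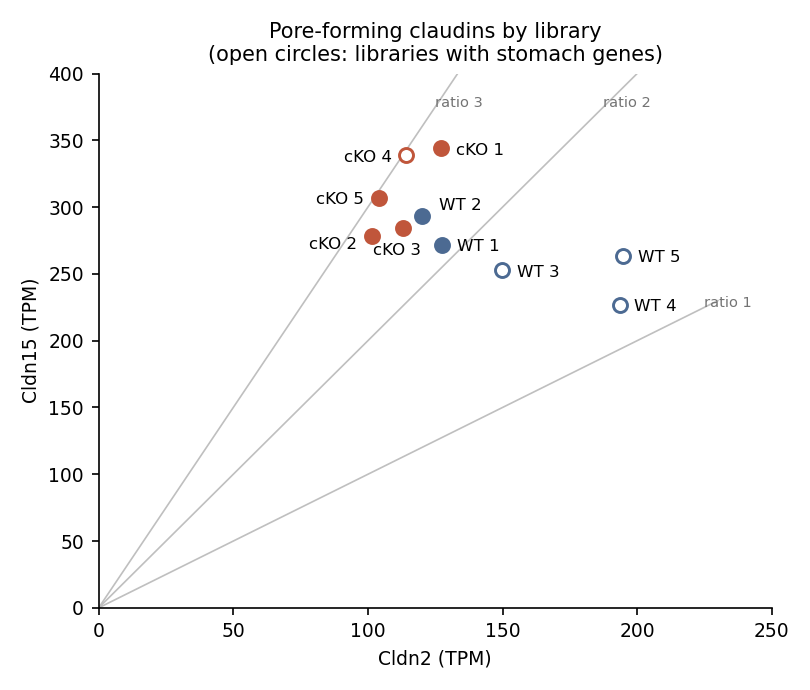
Cldn15 against Cldn2, both in TPM, in each WT (blue) and Arid3a cKO (orange) library, with grey lines at Cldn15 to Cldn2 ratios of 1, 2 and 3 and open circles for libraries with stomach genes. The cKO libraries lie between ratios of 2.52 and 2.97, and WT 3, WT 4 and WT 5 lie to the right at 149.9 to 195 TPM of Cldn2.

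Summed over both genes, pore-forming claudins gave 399 to 458 TPM in WT and 379.7 to 471 TPM in Arid3a cKO, and the ranges overlapped. The 4 sealing claudins summed to 771 to 883 TPM in WT and 689.9 to 849 TPM in cKO. The ratio of pore-forming to sealing TPM was 0.468, 0.468, 0.522, 0.510 and 0.534 in WT 1 to WT 5 and 0.555, 0.550, 0.490, 0.566 and 0.593 in cKO 1 to cKO 5. The means were 0.5005 ± 0.0309 and 0.551 ± 0.0378, and the groups overlapped through cKO 3, which lay below WT 3, WT 4 and WT 5. This ratio carries the difference in effective length of Cldn7 given above, which CPM leaves out. In CPM the sealing sum had a higher median in cKO (576 in WT, 617 in cKO), whereas in TPM it was lower (854 and 800). For such sums the scales differ in length and also in the TMM scaling, which only the CPM have. The separate parts of length and scaling were not tested. The pore-forming sum in CPM had medians of 693 in WT and 715 in cKO. The CPM ranges overlapped for sealing (551 to 684 and 594 to 687) and pore-forming claudins (635 to 873 and 673 to 797). Among the 6 libraries without stomach genes the 2 WT ratios in TPM were both 0.468 and all 4 cKO ratios lay above them. The effective length of Cldn7 was 812 and 888 bases in these WT libraries and 891 to 966 bases in these cKO libraries. A ratio of CPM was not taken per library, so this separation is given for TPM only.

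As a share of the TPM of these 6 claudins, Cldn2 took 10.2, 9.26, 12.8, 15.6 and 14.8% in WT 1 to WT 5 and 9.11 to 9.63% in Arid3a cKO. Cldn15 took 18.2 to 22.6% in WT and 23.5 to 27.8% in cKO, without overlap. Cldn7 took 49.1 to 52.6% in WT and 46.1 to 49.3% in cKO, where cKO 3 overlapped with WT 3, and this share carries the difference in effective length given above. Cldn3 took 13.7 to 16.6% and 15.02 to 17.2%.

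**Figure D4:**
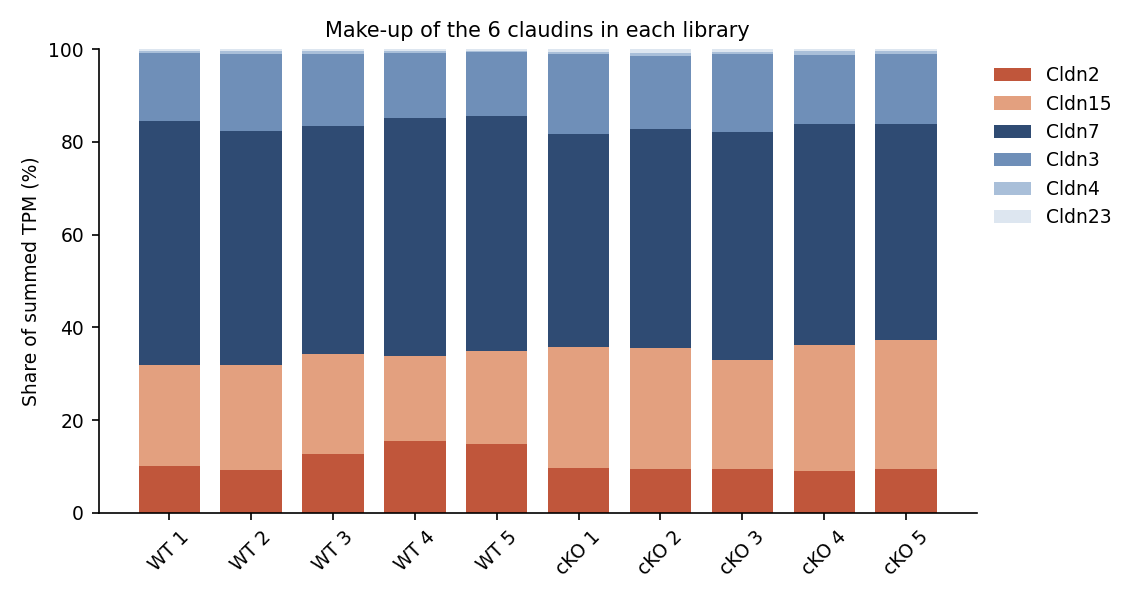
Share of the summed TPM of 6 claudins (stacked bars, in %) taken by each gene in each library, with pore-forming claudins in orange tones at the bottom and sealing claudins in blue tones above. Cldn7 takes 46.1 to 52.6% in all 10 libraries, and the Cldn2 segment is tallest in WT 3, WT 4 and WT 5 at 12.8 to 15.6%.

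The genes whose pattern over the 10 libraries came nearest to the pore-forming claudins were found among 9207 genes with a mean of at least 10 CPM, by the root mean square difference of centred log2 CPM (pseudocount 0.5). For Cldn2 they were Pdia4 (0.076), Ppid (0.086) and Pdia6 (0.090), against a median of 0.32 over the genes compared. Pdia4 and Pdia6 encode protein disulfide isomerases of the endoplasmic reticulum and Ppid a cyclophilin. Pdia4 measured 186, 201, 228, 289 and 352 CPM in WT 1 to WT 5 and 184 to 233 CPM in cKO, and lay above the cKO range in WT 4 and WT 5. For Cldn15 they were D17H6S53E (0.040), Bsdc1 (0.047) and Ftl1 (0.056), the last encoding the ferritin light chain, against a median of 0.29. These are likenesses over libraries that share genotype and stomach genes, and no test was made of them.

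Other genes of cell junctions were read from lists of related genes. Of 24 other claudins with a matching symbol, 2 passed the filter on low counts, Cldn12 (58.3 ± 4.32 CPM in WT, 60.6 ± 3.11 in Arid3a cKO, edgeR adjusted p = 0.572) and Cldn8 (0.781 ± 0.237 and 1.004 ± 0.229 CPM, edgeR adjusted p = 0.356). Another 9 had no count in any library. edgeR called 0 of these 2 genes, 0 at an unadjusted p under 0.05, and DESeq2 called 0. Cldn18, the claudin of stomach epithelium, was not tested, with 407, 380 and 160 counts in WT 3, WT 4 and WT 5 and 78 counts in cKO 4 but 0 to 3 counts in each other library. Vsig1, a gastric adhesion molecule, followed the same libraries with 213, 140, 56 and 48 counts against 2 to 18 counts elsewhere, and its log2 fold change of -2.29 did not pass edgeR's test (adjusted p = 0.131).

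Among the 11 tested membrane partners of tight junctions, 2 rose and 0 fell in edgeR's test, with 0 lower at an unadjusted p under 0.05 and 0 by DESeq2. Over all tested genes edgeR called 15.6% higher and 12.7% lower. Cxadr, the coxsackievirus and adenovirus receptor, rose from 72.0 ± 7.01 to 95.4 ± 4.74 CPM (log2 fold change 0.41, SE 0.073, edgeR adjusted p = 0.00265), although limma on log2(TPM + 1) gave 0.26 with an adjusted p of 0.0717. Igsf5 rose from 25.2 ± 3.60 to 36.1 ± 4.45 CPM (0.52, SE 0.11, edgeR adjusted p = 0.00574), a value made uncertain by an overlapping read-through locus. Lsr, the tricellular junction protein angulin-1 and the most abundant of the list in WT with Jaml, stood at 207 ± 15.1 and 194 ± 9.93 CPM (edgeR adjusted p = 0.301). Jaml stood at 109 ± 13.03 and 109 ± 10.7 CPM.

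Of 21 tested plaque and polarity genes, 4 rose and 3 fell, beside 15.6% and 12.7% of all tested genes. Mylk, the myosin light chain kinase, whose long form acts on the perijunctional actomyosin ring and whose short form is made by smooth muscle, rose from 90.9 ± 19.3 to 139.7 ± 17.2 CPM (0.62, SE 0.14, edgeR adjusted p = 0.00773). Mpp5, the Crumbs complex scaffold PALS1, rose from 37.1 ± 3.33 to 55.5 ± 4.05 CPM (0.58, SE 0.078, edgeR adjusted p = 0.000799). Prkcz, an atypical protein kinase C, rose from 38.1 ± 4.32 to 54.1 ± 5.16 CPM (0.51, SE 0.093). Cgnl1, or paracingulin, fell from 8.91 ± 3.23 to 5.03 ± 1.49 CPM (log2 fold change -0.82, SE 0.26, edgeR adjusted p = 0.0361). Its call was lost when any of WT 3, WT 4, WT 5, cKO 1, cKO 3 or cKO 5 was left out (-0.84 to -0.65), without a filter on low counts (edgeR adjusted p = 0.0697) and with the stomach-gene term (-0.48, edgeR adjusted p = 0.0871). Ybx3 (-0.37) and Sympk (-0.26), proteins that also act in the nucleus, fell as well, and both lost their call with the stomach-gene term (-0.31 and -0.17, edgeR adjusted p = 0.0759 and 0.1001). Sympk also lost it with the replicate block (edgeR adjusted p = 0.0564) and without WT 3, WT 4, WT 5, cKO 3 or cKO 5. Tjp3, encoding ZO-3, was at 199.6 ± 5.14 and 196 ± 15.02 CPM (edgeR adjusted p = 0.765).

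Of 18 genes of adherens junctions and desmosomes, 4 rose and 1 fell, beside the same 15.6% and 12.7% of all tested genes. Cdh17, the intestinal cadherin, rose from 755 ± 41.0 to 1115 ± 61.7 CPM (0.56, SE 0.068, edgeR adjusted p = 0.000587). Nectin3 (0.23, edgeR adjusted p = 0.0210) and Ctnna1, alpha-catenin (0.21, edgeR adjusted p = 0.0256), passed with smaller values. Both calls were lost with library size alone (0.10 and 0.081, edgeR adjusted p = 0.265 and 0.367), with limma on log2(TPM + 1) (both 0.11, adjusted p = 0.282 and 0.322) and with the replicate block (edgeR adjusted p = 0.0775 and 0.0841). Nectin3 also lost its call without cKO 2 or cKO 3, and Ctnna1 without cKO 1 or cKO 4 and without a filter on low counts. Nectin1 fell from 58.3 ± 3.17 to 50.04 ± 3.73 CPM (-0.22, SE 0.069, edgeR adjusted p = 0.0307), a call lost with the replicate block (edgeR adjusted p = 0.0731), without a filter on low counts (0.0752) and without WT 4, cKO 2, cKO 4 or cKO 5. Ctnnb1, beta-catenin, stood at 658 ± 42.8 and 651 ± 25.6 CPM (edgeR adjusted p = 0.890). Of 6 tested genes of the EpCAM and matriptase axis, which controls the turnover of Cldn7, Spint1, a matriptase inhibitor, rose from 149 ± 21.6 to 200.1 ± 14.9 CPM (0.42, SE 0.097, edgeR adjusted p = 0.00820). Epcam itself was at 1250 ± 81.4 and 1414 ± 27.9 CPM (0.18, edgeR adjusted p = 0.0618). Spint2 was at 513 ± 53.1 and 538 ± 22.0 CPM (edgeR adjusted p = 0.529).

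Over the 58 other junction genes tested, edgeR called 11 higher and 4 lower in Arid3a cKO, beside the 15.6% and 12.7% of all genes. By list, the median log2 fold change was 0.21 for the other claudins, -0.0030 for the membrane partners, -0.03 for plaque and polarity genes, 0.06 for adherens junctions and desmosomes and 0.05 for the EpCAM and matriptase axis. Scaling by library size alone changed the split to 7 higher and 11 lower. Without the 4 libraries with stomach genes 2 were called higher, Mpp5 (0.46, edgeR adjusted p = 0.0436) and Cdh17 (0.48, edgeR adjusted p = 0.0411). In them 1 was lower, Ildr2 (-2.72, edgeR adjusted p = 0.0295, named after its value was seen), from 2 WT libraries. Over all 10 libraries Ildr2 held only 2 to 68 counts per library and did not pass edgeR's test (-1.43, SE 0.85, adjusted p = 0.233). Cxadr stood at 0.36 (edgeR adjusted p = 0.0635) in those 6 libraries and Cgnl1 at -0.43 (edgeR adjusted p = 0.275). Ybx3 stood at -0.16 (edgeR adjusted p = 0.358) and Sympk at -0.095 (edgeR adjusted p = 0.477). Also not called there by edgeR were Igsf5 (0.52, adjusted p = 0.0821), Mylk (0.45, adjusted p = 0.0926), Prkcz (0.34, adjusted p = 0.105), Nectin3 (0.31, adjusted p = 0.0869), Spint1 (0.31, adjusted p = 0.131), Ctnna1 (0.20, adjusted p = 0.244) and Nectin1 (-0.21, adjusted p = 0.228).

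**Figure D5:**
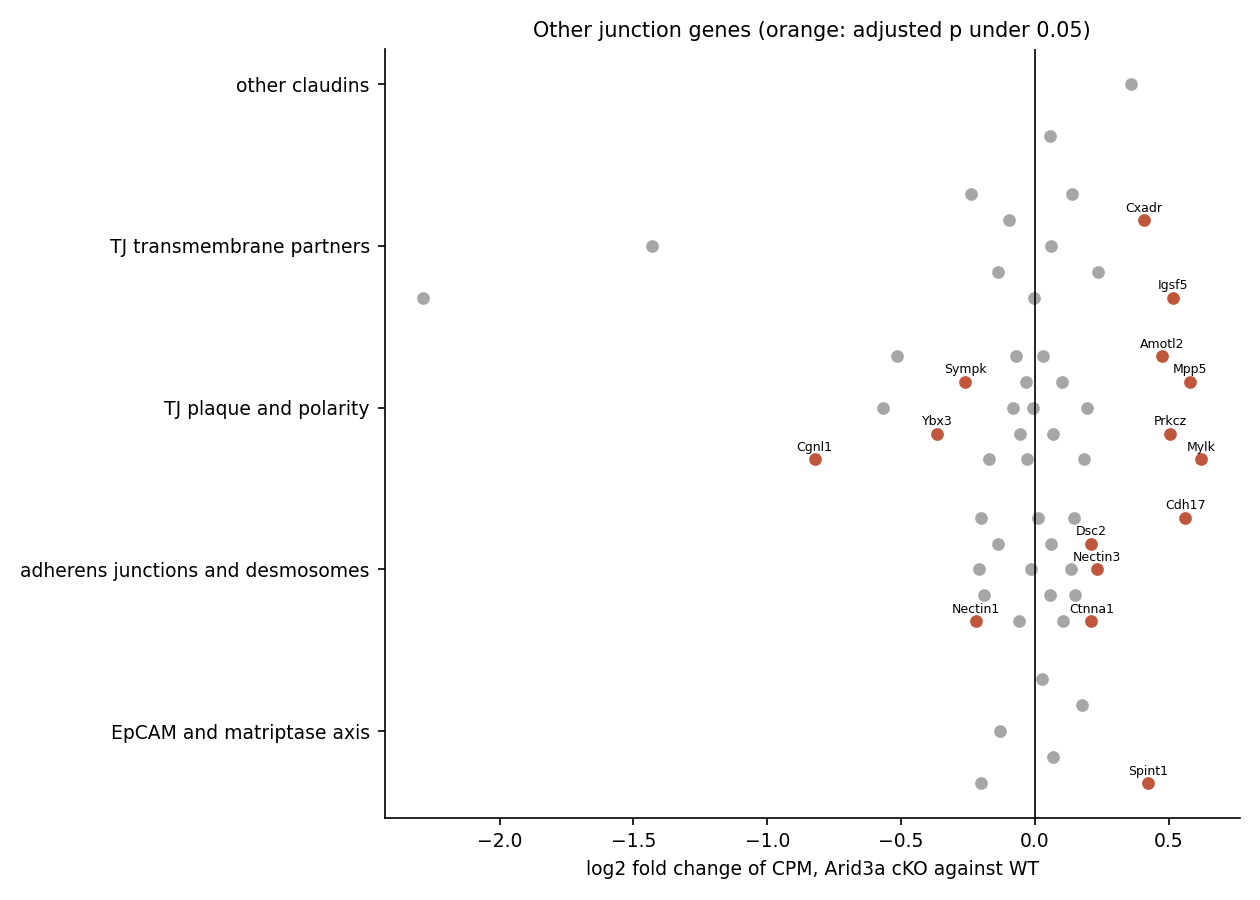
Log2 fold change of CPM, Arid3a cKO against WT, for the 58 other junction genes tested (each point 1 gene, stacked by list, TJ for tight junction; the vertical offset within a list only separates points), with genes at an adjusted p under 0.05 in orange and named. Of these, 11 lie to the right of 0 and 4 to the left, and the 2 leftmost grey points are Vsig1 and Ildr2.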

How the data were processed

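Per the study's methods and the labels, the authors ran nf-core/rnaseq, in which STAR aligned reads to GRCm38 and RSEM estimated an expected count for each Ensembl gene. For differential expression the authors used DESeq2's Wald test, with terms for Arid3a status and time and a false discovery rate under 0.05. The DESeq2 results given here are from a fit with genotype alone. They deposited, per library, the expected count, TPM and FPKM (the deposited FPKM was not used), with gene lengths. RSEM splits reads that match several genes, and its TPM depends on the isoform mix. The strand setting is not given in the sources used here.

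Expected counts were rounded and tested in R 4.3.3 with edgeR 4.0.16: filterByExpr (minimum count 10, minimum total 15), TMM, and the robust quasi-likelihood test, with p-values adjusted by Benjamini-Hochberg over 14719 genes (threshold 0.05). CPM use TMM-scaled library sizes. Libraries held 27050455 to 31053622 counts. Alternatives used RLE factors, library size alone, DESeq2 1.42.0, limma 3.58.1 (voom, and log2 TPM with pseudocounts 1 and 0.1), other filters, unrounded counts, effective lengths, a replicate block and each library left out. A pair chosen after seeing the data dealt with stomach genes. Scripts were tested on simulated data. Gene positions come from GENCODE M21 on GRCm38. Reads carry no molecular identifiers.

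The genes and lists were chosen with earlier results of these data known. Named beyond the 9 genes were, per junction list, called genes of at least 1 CPM (at most 3 per direction with the largest change) and the 2 most abundant in WT TPM, and the 3 genes nearest in pattern to Cldn2 and to Cldn15. Amotl2 and Dsc2 were also called but lay outside this rule. The replicate numbers carry no pairing in the labels. Each library is 1 mouse, so p-values weigh a difference against the spread between libraries. That spread holds differences between animals and between their preparations.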

Additional observations from a re-analysis of the deposited data

Results flagged for a closer look

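Of 50 groups of 5 libraries examined for a single value far from the rest (each of the 9 genes and Arid3a in CPM and TPM, and 5 claudin ratios and shares), 1 stood out: Cldn3 in WT 2, at 216 TPM, against 186 TPM in the next WT library. Dixon's ratio was 0.75 against a critical value of 0.71, and chance alone marks about 5% of such groups. In CPM the same library was also the highest of the WT group for Cldn3, at 201 CPM.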

How the results depend on the processing

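Arid3a kept its direction in every setting that gave a value and lost its call only without the 4 libraries with stomach genes (-1.69). Cldn2 passed the threshold with library size alone (-0.52), DESeq2 (-0.39), at least 10 counts in every sample (-0.39), and limma on log2(TPM + 1) and log2(TPM + 0.1) (both -0.46). Calls were lost with library size alone for Cldn15 (0.21), Cldn23 (0.51), Ocln (0.091) and F11r (0.22). They were also lost for Ocln without a filter on low counts (0.23), with effective lengths (0.15), on both TPM scales (0.064 and 0.065) and with the replicate block (0.22, adjusted p = 0.0599), and for F11r on both TPM scales (0.22 each). Without the stomach-gene libraries Cldn15 (0.21), Cldn23 (0.60), Ocln (0.21) and F11r (0.26) were not called. With a stomach-gene term Cldn15 (0.30), Cldn23 (0.47) and Ocln (0.23) were not called. Signs turned, with no call, for Cldn3 (-0.017) and Tjp1 (-0.087) with library size alone, and for Cldn7 with library size alone (-0.12), effective lengths (-0.089), both TPM scales (-0.18 each), without the stomach-gene libraries (-0.015) and with their term (-0.0048).

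Leaving out 1 library at a time gave -0.47 to -0.24 for Cldn2 (called without WT 1 or WT 2), -0.028 to 0.070 for Cldn7, 0.27 to 0.40 for Cldn15, 0.53 to 0.75 for Cldn23, 0.20 to 0.27 for Ocln, -0.0095 to 0.096 for Tjp1, -0.044 to 0.064 for Jaml and -0.040 to 0.011 for Ctnnb1. The count of the 9 genes called ran from 1 to 4 higher and from 0 to 1 lower, with 1 higher without cKO 1 and 2 without WT 4, cKO 2 or cKO 3, and that of other junction genes called lower from 1 to 5, with 1 without WT 4 or cKO 5 and 2 without WT 3 or cKO 3.

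The 9 genes gave 0 higher and 1 lower calls with library size alone, 2 and 1 on both TPM scales, 1 lower with DESeq2 or at least 10 counts in every sample, 0 higher without the stomach-gene libraries and 1 higher with their term. Other junction genes gave 7 higher and 11 lower with library size alone, 6 higher on both TPM scales, 7 and 2 with the replicate block, 2 and 1 without the stomach-gene libraries, and 7 and 0 with their term. Over all genes library size alone called 1541 higher and 4030 lower, and log2(TPM + 1) 1411 and 2760, against 2298 and 1869. The stomach-gene libraries' omission left 330 and 93 and moved the WT means, in TPM, of the Cldn15 to Cldn2 ratio to 2.29 and of the pore-forming to sealing ratio to 0.468. Fewer libraries entered that fit, and the cause of the other shifts was not tested.

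Among uncalled junction genes signs turned for Cldn12 (library size -0.075, TPM -0.044 and -0.045), Spint2 (-0.057, -0.021 and -0.021), Jaml (RLE 0.0053, DESeq2 0.0084, no filter 0.0052, 10 counts 0.0058, effective lengths 0.023, stomach-gene term 0.041), Tjp3 (without the stomach-gene libraries 0.013) and Ctnnb1 (effective lengths 0.15, TPM 0.056 and 0.056, without the stomach-gene libraries 0.050, with their term 0.040). The replicate numbers gave no sign of a pairing, since same-numbered residuals correlated from -0.157 to 0.131 and no WT library matched its own number best. Such correlations cannot show that the animals were unpaired. With the block 3052 genes were called, against 4167. Counting error alone gives Cldn4 and Cldn23, at 131 to 386 counts per library, a coefficient of variation of 5.09 to 8.74%, below their 19.4 to 27.7% between libraries of a group.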
